A study of Caenorhabditis elegans with 2 samples.

Results

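The genes pck-1, pck-2 and pck-3 of the nematode Caenorhabditis elegans are annotated as phosphoenolpyruvate (PEP) carboxykinases. They were taken by name, as 3 of 19973 protein-coding genes of the Ensembl WBcel235 annotation, the same assembly as ce11. At each of them the data were the transcription factor ChIP-seq peaks whose summit, the point of highest signal, lay from 1000 bp upstream to 300 bp downstream of any annotated transcript start. The genes were selected on the signal, score and rank of the peaks found there and on their presence in each list, so all of these are given as a description, with no test.

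The libraries came from whole L4 larvae of strain RW12275, collected 48 h after L1 animals were synchronised by starvation following bleaching. In this strain CRISPR placed a TY1, EGFP and 3xFLAG tag at Y75B8A.6 on chromosome III, and chromatin carrying the tagged protein was pulled down with antibody against GFP. The group held 2 biological replicates, both with the tag, and no group without the tag or at another stage was analysed here. Both were of a single strain, and chromatin of all tissues was mixed, so no peak can be given to a tissue. Whether the replicates came from separate cultures is not stated beyond their being biological replicates.

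There were 8 peak lists, 4 of them thresholded and 4 ranked. The main list is the larger thresholded list of the series, with 933 peaks, and the conservative list is the other, with 798. The thresholded lists of replicates 1 and 2 held 343 and 345 peaks. The ranked lists, which also hold candidates below the threshold, had 75570 peaks for replicate 1 and 56066 for replicate 2, and 103934 and 101822 for the lists of both libraries that lie behind the main and the conservative list. The signal is the value the authors' peak caller gave each peak, on a scale that is not stated, and is read within a list only. The score, up to 1000, rises with the repeatability of a peak between paired lists, and no thresholded list held a peak under 830. The highest score below that in the ranked list behind the main list was 829. Read totals were not used here, so the depth behind each signal is unknown.

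PEP carboxykinase turns oxaloacetate into phosphoenolpyruvate, the committed step by which carbon from the citric acid cycle enters gluconeogenesis. In C. elegans it links the glyoxylate shunt, which lets the animal make carbohydrate from stored fat, to the synthesis of glucose and of trehalose, a storage and stress-protective sugar of nematodes. The genes differ in structure. By translation of the annotated coding sequences, PCK-1 (651 residues) and isoform a of PCK-2 (654 residues) were identical at 71.9% of 641 aligned positions, whereas PCK-3 (624 residues) matched PCK-1 at 30.7% of 566 and PCK-2 at 30.2% of 572. In the annotation pck-2 had 5 transcript starts, and pck-1 and pck-3 had 1 each.

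Of the 3 genes, only pck-2 had a peak in its promoter windows in any thresholded list. It had one in all 4 of them. Over all protein-coding genes, 2.33% had a summit in such a window in the main list, 1.97% in the conservative list, 0.891% in the list of replicate 1 and 0.946% in that of replicate 2. Because the genes were chosen with these lists known, nothing is read from 1 of 3 against those shares. Neither pck-1 nor pck-3 had a thresholded peak anywhere from 1000 bp upstream of its start to its end.

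The gene pck-2 (WBGene00011232, R11A5.4) lies on the plus strand of chromosome I from 7866136 to 7872100 (ce11). Its strong peak stood at I 7869012 to 7869181, with a summit at 7869104. The main list gave it a signal of 165.5 and a score of 1000, which placed it 14th of 933. The signal and the rank of 14 were the same in the conservative list. In replicate 1 the signal was 95.7 and the rank 12th of 343, and in replicate 2 the signal was 77.9 and the rank 18th of 345, so both replicates held it among their strongest thresholded peaks.

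In the ranked lists the same peak was 38th of 75570 in replicate 1 and 54th of 56066 in replicate 2. It was 47th in both lists of the 2 libraries together. Of the 46 candidates of higher signal in the list behind the main list, 13 were in the main list and the other 33 were not, although all 33 had a score of 1000. No source used here gives the reason for their absence. Taking the strongest window peak of each protein-coding gene in that list, pck-2 stood among the top 13 of 19973 genes, with its own peak counted. Having 5 starts gives a gene more windows to hold a peak. Of the 514 genes with 5 or more starts, 23 (4.47%) had a main-list summit, against 2.33% of all protein-coding genes. Among these 514, pck-2 alone reached its own signal, a value on which it was selected. The effect of the number of starts on the pck-2 signal was not tested.

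The strong peak did not mark the most upstream start of pck-2. Its summit lay 2968 bp inside the gene from there and 8 bp downstream of the start of transcript R11A5.4b.1, which begins at 7869096. For transcripts R11A5.4a.1, R11A5.4a.2 and R11A5.4d.1 that position is in an intron, which in R11A5.4a.1 runs for 3378 bp from 7866589 to 7869966. For R11A5.4b.1 it is in the untranslated part of the first exon, whose coding sequence begins 805 bp further on from the start. Across the 8 lists the summit moved by 9 bp at most. It was 1 bp upstream of the start of R11A5.4b.1 in the lists of replicate 1 and 5 bp downstream of it in those of replicate 2.

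That start makes a protein with a different beginning. The coding sequence of R11A5.4b.1 gives 629 residues, of which the last 607 are those of isoform a and the first 22 are its own. The other isoforms have 654 residues (a), 618 (d) and 587 (c), and all share the last 587. The start of R11A5.4c.1, at 7870027, lay 923 bp downstream of the strong summit, so the peak was also within the window of that transcript. Peaks do not show which transcript was made.

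With the window drawn at the most upstream start of each gene alone, none of the 3 genes had a main-list summit, and the share of all genes was 2.1%. The same change removed 46 of 466 genes over the whole annotation (9.87%). Of the 388 main-list summits in promoter windows, 11 (2.84%) were within 8 bp of a start, as the pck-2 summit was, and the median distance to the nearest start was 257.5 bp.

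**Figure D1:**
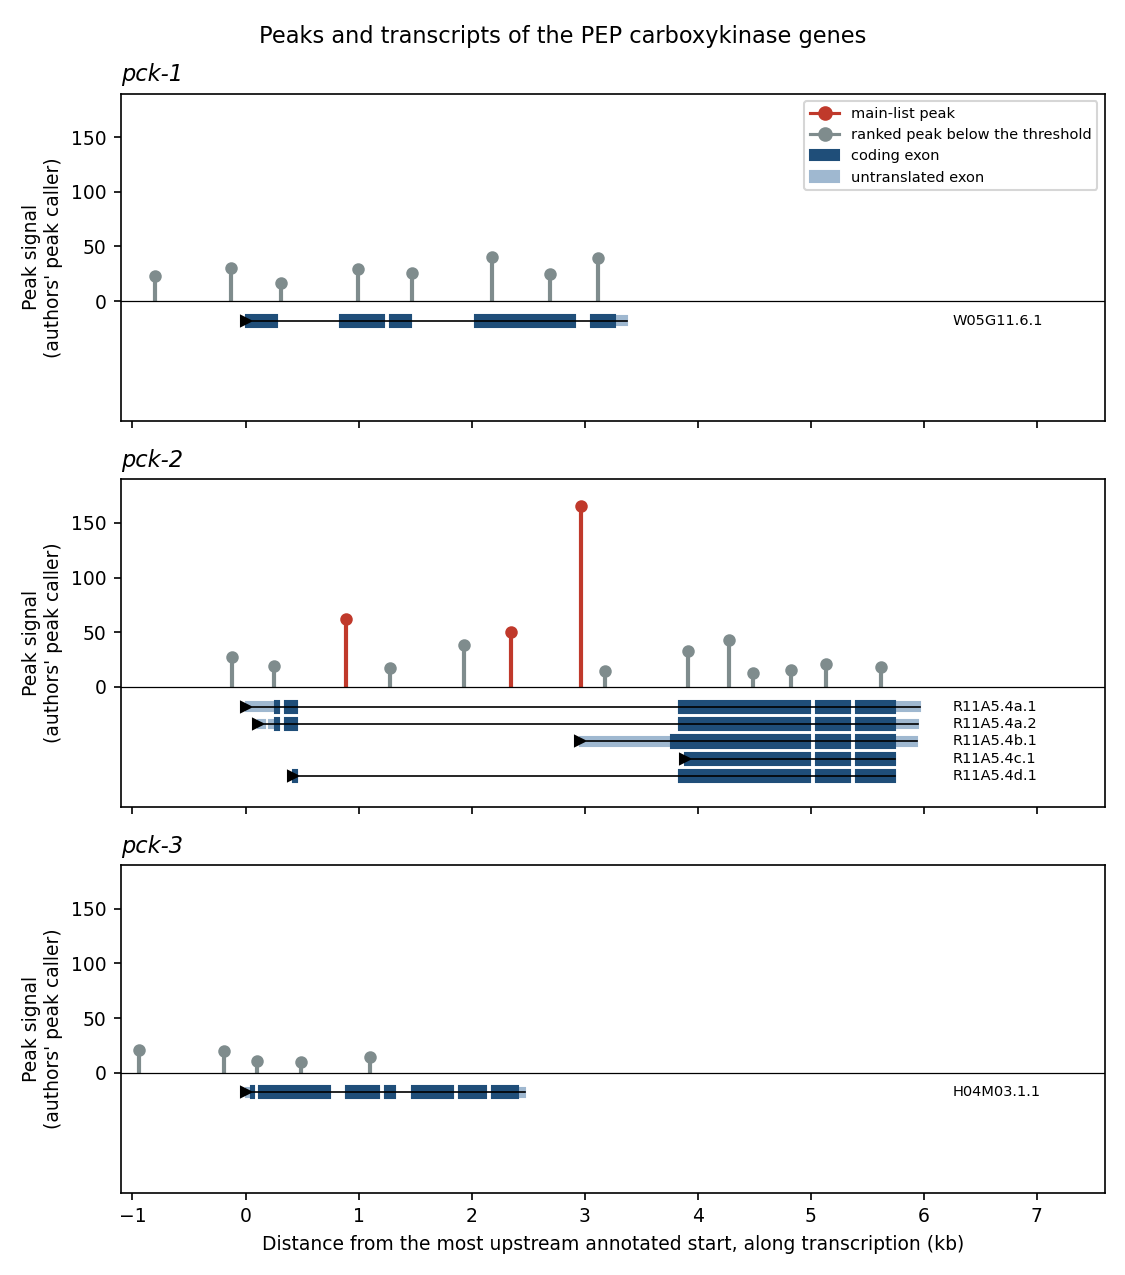
Candidates and main-list peaks of both libraries across pck-1, pck-2 and pck-3, in the fuller ranking that underlies the main list, from 1000 bp upstream of the most upstream start to the end of the gene. The x axis is the distance from that start along transcription in kb, the y axis the peak signal, with main-list peaks in red, candidates below the threshold in grey, and transcripts drawn below with arrowheads at their starts. The tallest peak, at 165.5, sits at the start of R11A5.4b.1, and pck-1 and pck-3 have grey candidates only.

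A weaker main-list peak stood upstream of the same start. It ran from I 7868355 to 7868610, with its summit 613 bp upstream of the start of R11A5.4b.1 and 621 bp from the strong summit. Its signal was 50.2, its rank 788th of 933 and its score 863, close to the minimum of 830. The summit also lay 565 bp upstream of the start of R11A5.6, a protein-coding gene on the minus strand (7867577 to 7867918) inside the long intron of pck-2, and so in the window of both genes.

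The replicates differed at this weaker peak. Replicate 2 had it in its thresholded list, at I 7868332 to 7868555, with a signal of 44.4, a score of 953 and a rank of 147th of 345. The thresholded list of replicate 1 had no peak there. The ranked list of replicate 1 held candidates that overlapped the main-list peak, with summits on either side of its summit. That with its summit 764 bp upstream of the start had a signal of 32.7 and a score of 69. That at 526 bp upstream had a signal of 8.82 and a score of 48. The conservative list left the peak out, and the ranked list behind it gave it a score of 73.

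One more main-list peak of the gene lay outside every promoter window. It stood in the same long intron at I 7866896 to 7867151, with a summit 888 bp downstream of the most upstream start. The main list gave it a signal of 62.2 (462nd of 933, score 1000) and the conservative list a score of 956. It was thresholded in replicate 1 (signal 42.7, 220th of 343) and in replicate 2 (signal 22.6, 335th of 345, score 858). By position the 3 main-list summits of pck-2 all fell between the coding exons of isoform a that flank this intron. Over all protein-coding genes, 9 of 19973 (0.0451%) had 3 or more main-list summits in the gene or the 1000 bp before it, pck-2 among them. This peak and this count were chosen after their values were seen.

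Further candidates of pck-2 in the ranked list behind the main list were below the threshold. The strongest by signal lay outside the promoter windows, in a coding exon, with a signal of 43.3 and a score of 572. Another outside them, in the long intron, had a signal of 38.3 and a score of 549. Candidates overlapping the latter had a signal of 46.3 and a score of 771 in replicate 1, and 16.5 and 37 in replicate 2. Those inside the windows had lower signals. At the start of R11A5.4c.1 a summit 22 bp downstream, in a coding exon, had a signal of 33.2 and a score of 477. At the most upstream start a summit 123 bp upstream had a signal of 27.1 and a score of 467. A candidate 216 bp downstream of the start of R11A5.4b.1, just past the end of the strong peak, scored higher, at 664, with a signal of 14.8. Its score was 413 in the list behind the conservative list. Replicate 1 had a candidate there with a score of 39, and replicate 2 had no separate one. The candidate 138 bp downstream of the start of R11A5.4a.2 had a signal of 19.1 and a score of 387.

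In the replicates the candidates of pck-2 at its other starts were weak as well. Near the most upstream start replicate 1 had a signal of 15.4 and a score of 19 with a summit 5 bp upstream, and replicate 2 had 16.7 and a score of 142 with a summit 33 bp downstream. Near the start of R11A5.4c.1 replicate 1 had a signal of 22.4 and a score of 71, and replicate 2 had 18.3 and a score of 106. Each is well below the signals of 95.7 and 77.9 that the same replicates gave the strong peak.

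The gene pck-1 (WBGene00021043, W05G11.6) spans 62888 to 66260 of chromosome III and is read from the minus strand. It had 2 candidates in its window. The stronger stood at III 66264 to 66519, with a summit 132 bp upstream of the start. Its signal was 30.6 and its rank 9972nd of 103934, and its score was 89 in the list behind the main list and 496 in the list behind the conservative list. In replicate 1 the summit was at the same base, with a signal of 23.8 and a rank of 3792nd of 75570. In replicate 2 the nearest candidate had its summit 25 bp downstream of the start, with a signal of 17.5, a score of 380 and a rank of 7539th of 56066. The other candidate, 803 bp upstream, had a signal of 23.0 and a score of 153.

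The window of pck-1 was not where the gene's candidates were strongest. Inside the gene, coding exons held candidates with signals of 40.4 and 39.4. In the lists behind the main and the conservative list, the one at 40.4 scored 292 and 610. The one at 39.4 scored 595 and 144. Replicate 1 had a candidate with the summit of the latter, with a signal of 13.0 and a score of 178. Replicate 2 had none that overlapped it. Compared with the strongest window candidate of the 14498 genes with 1 start, 13.0% of them had a signal at or above the 30.6 of pck-1, and their median was 17.2.

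The gene pck-3 (WBGene00019151, H04M03.1), on the plus strand of chromosome IV from 5896641 to 5899112, had the weakest window. Its 3 candidates in the ranked list behind the main list had signals of 20.3, 19.7 and 10.4, with summits 945 bp upstream, 194 bp upstream and 100 bp downstream of the start, and scores of 36, 105 and 105. Each replicate held 1 candidate, with a signal of 13.5 at 158 bp upstream in replicate 1 and 11.6 at 76 bp downstream in replicate 2. In the list of both libraries, the candidate of replicate 1 overlapped the one 194 bp upstream and the one 100 bp downstream. That of replicate 2 overlapped only the one 100 bp downstream. The candidates of the replicates also overlapped each other, with summits on either side of the start. Of the genes with 1 start, 39.4% had a window candidate at or above the signal of pck-3.

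**Figure D2:**
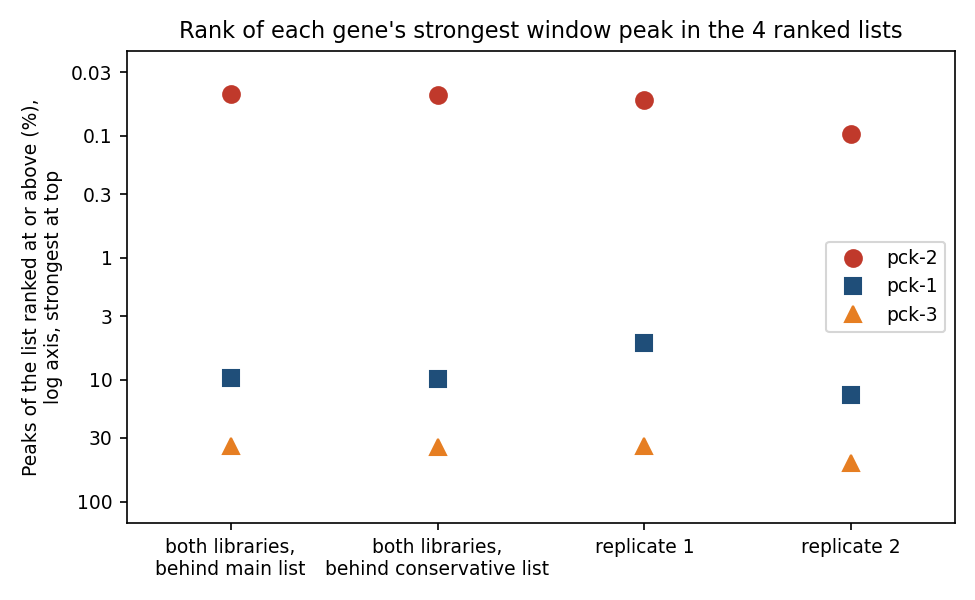
Rank of the strongest promoter-window peak of pck-2, pck-1 and pck-3 in the 4 ranked lists. The y axis gives, on a log scale with the strongest at the top, the percentage of the list's peaks ranked at or above it. The order pck-2, pck-1, pck-3 is the same in every list, with pck-2 between 0.0452% and 0.0963%, pck-1 between 5.02% and 13.4%, and pck-3 between 34.7% and 48.5%.

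Sequences are given at the upstream candidate nearest the start of pck-1 and of pck-3, the 2 promoters without a thresholded peak. The one shown for pck-3, with a signal of 19.7, was not its strongest (20.3, 945 bp upstream). The last sequence is that under the main-list summit of idhg-1, a pathway gene described below. Each is 101 bp of the RefSeq WBcel235 genome, centred on the summit and read along the gene, at III:66342-66442 on the minus strand, IV:5896397-5896497 on the plus strand and III:4568693-4568793 on the plus strand. Capitals mark matches to the searched motifs.
pck-1: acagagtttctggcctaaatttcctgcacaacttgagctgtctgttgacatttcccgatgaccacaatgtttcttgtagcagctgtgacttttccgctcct
pck-3: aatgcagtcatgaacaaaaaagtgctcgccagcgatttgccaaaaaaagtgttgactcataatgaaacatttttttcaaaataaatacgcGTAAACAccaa
idhg-1: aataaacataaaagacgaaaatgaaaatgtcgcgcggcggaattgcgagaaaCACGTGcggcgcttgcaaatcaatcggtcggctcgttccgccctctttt

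In all, 6 motifs were searched on both strands. The sequence TGATAA is bound by zinc-finger factors that regulate intestinal genes. The sequence GTAAACA is recognised by forkhead factors such as the insulin-pathway factor DAF-16. The sequence CACGTG is an E-box, and GTTCGA is the core of the B box inside tRNA genes. The other 2 were TATAAA, the core promoter element, and the repeat GAGAGA. None of the 6 was in the 101 bp at the strong pck-2 summit, at the weaker pck-2 summit or at either pck-1 candidate. Of the 4 other pck-2 candidates in its windows, the one 22 bp downstream of the start of R11A5.4c.1 held CACGTG and the rest held no motif. Of the 3 pck-3 candidates, the one shown, 194 bp upstream, held GTAAACA, and those 945 bp upstream and 100 bp downstream held none. GTAAACA was held by 1.07% of the 933 main-list windows of 101 bp and, over 300 bp, by 4.77% of all promoters (250 bp before to 50 bp after the most upstream start). CACGTG, found at idhg-1 too, was in 5.14% of the main-list windows. None of the 6 motifs was at the main-list summits of the other pathway genes described below (gpi-1, enol-1, tps-2 and tre-1). Of the main-list windows 8.36% held TGATAA and 13.2% held GTTCGA. The shares were 6.00% for TATAAA and 14.5% for GAGAGA. Over the 300 bp promoters the shares were 30.2% for TGATAA, 5.82% for CACGTG and 9.85% for GTTCGA, and 37.9% for TATAAA and 21.8% for GAGAGA. In the same 300 bp at each of its 5 starts, pck-2 had GTTCGA at 2 starts, which lie 113 bp apart. It had GAGAGA at 2 starts and CACGTG at 1, and none of the 6 at the start of R11A5.4b.1. The pck-3 promoter held GTAAACA and GAGAGA, and that of pck-1 held no motif. The 101 bp at the strong pck-2 summit were 34.7% G or C, and those at the weaker one 60.4%. The median was 47.5% over main-list windows and 34.3% over the 300 bp promoters of all protein-coding genes. The chromosome I sequence itself is not printed.

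The main-list peaks most like the strong pck-2 peak were compared over the 4 ranked lists, by the sum of absolute differences in log10 rank, for the 380 promoter peaks with a counterpart in all 4. The nearest was the peak shared by rpl-15 and K11H12.8 (IV 654787 to 655042, summed difference 0.133), with signals of 93.4 in replicate 1 and 82.7 in replicate 2. The next were a peak shared by F32D8.13 and sec-61.G (V 10897318 to 10897427, 0.194) and one shared by Y17G9B.5 and rpl-20 (IV 4750023 to 4750140, 0.282). RPL-15 and RPL-20 are proteins of the large ribosomal subunit, and SEC-61.G is part of the channel into the endoplasmic reticulum. In the main list the peak just above pck-2, with a signal of 165.5 at III 835910 to 835988, lay in no promoter window and was 1080 bp from the start of the noncoding gene K02F3.13, and the one just below was that of sec-61.G (163.5).

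Other genes of carbohydrate metabolism were read through 6 lists of 68 protein-coding genes. Of these, 5 (7.35%) had a main-list summit in a promoter window, against 2.33% of all protein-coding genes. The lists were drawn up with earlier results of these data known, and 41.2% of their genes had more than 1 start, against 27.4% of all genes. Of genes with more than 1 start 3.62% had a main-list summit, against 1.85% of genes with 1 start. None of the other 68 genes reached the signal of pck-2.

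Among enzymes that serve both glycolysis and gluconeogenesis, 2 of 11 had a main-list summit, against 2.33% of all protein-coding genes. The single lists are small beside that share, so no difference between them is read from these counts. They were gpi-1, which encodes glucose-6-phosphate isomerase (I 13576097 to 13576352, signal 42.0, 882nd of 933), and enol-1, the enolase that stands next to PEP carboxykinase in the pathway (II 8931496 to 8931751, 44.9, 866th). Neither peak was in the conservative list or in the thresholded list of a replicate. No main-list summit was found at the 2 other genes of the gluconeogenic bypass, pyc-1 (pyruvate carboxylase) and fbp-1 (fructose-1,6-bisphosphatase), whose strongest window candidates had signals of 27.5 and 30.7. The 7 genes for glycolytic enzymes that work in 1 direction, among them pyruvate kinase genes pyk-1 and pyk-2, had no main-list summit, nor had the 15 genes of pyruvate, lactate and malate metabolism.

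Of the citric acid cycle and glyoxylate genes, 1 of 21 had a main-list summit, against 2.33% of all protein-coding genes. This was idhg-1, for a subunit of isocitrate dehydrogenase, with a signal of 68.1 (346th) at III 4568615 to 4568870, in a window shared with mlcd-1. It was in the conservative list and, with a signal of 39.3, in that of replicate 2, but not in that of replicate 1. Of the trehalose and glycogen genes, 2 of 12 had one. The gene tre-1, for a trehalase, had a signal of 91.9 (124th) at I 6554547 to 6554802, with the summit 54 bp upstream of its start, in the window of dad-1 as well and 34 bp from the start of the noncoding gene F57B10.17. The gene tps-2, for a trehalose-6-phosphate synthase, had a signal of 40.8 (886th) at II 14600891 to 14601146.

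The thresholded list of replicate 1 held a summit for 0 of the 68 genes, against 0.891% of all protein-coding genes, and that of replicate 2 for 4, against 0.946%. Both lists held pck-2. The 4 were idhg-1, tps-2, gpd-2 and icl-1. The conservative list held a summit for 6 of the 68 genes, against 1.97% of all protein-coding genes. Of the 5 main-list genes, 3 were among these 6, namely tre-1, idhg-1 and tps-2, and for tps-2 the conservative summit was another one, 918 bp upstream of its start. The other 3 were icl-1, mdh-1, for a malate dehydrogenase of the pyruvate and malate list (signal 44.7, score 1000), and sdha-1, for a subunit of succinate dehydrogenase (signal 50.7, score 836). The genes gpd-2, icl-1, mdh-1 and sdha-1 were named after their values were seen. The gene icl-1 encodes the bifunctional enzyme of the glyoxylate shunt. It had no main-list summit and was present in the conservative list (signal 57.1, 528th of 798) and in that of replicate 2 (39.3, 227th of 345).

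**Figure D3:**
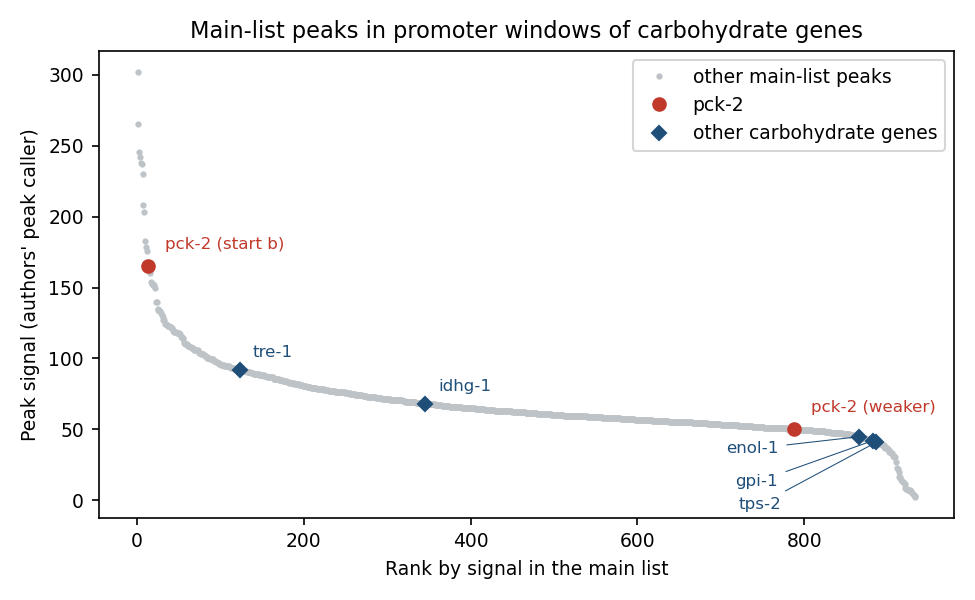
Signal of the 933 main-list peaks against their rank. Red circles mark the 2 pck-2 peaks in promoter windows, at ranks 14 and 788, and blue diamonds the 5 other carbohydrate genes, which lie between ranks 124 and 886.

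In the ranked list behind the main list, the strongest window candidate of the 68 genes had a median signal of 29.2, against 18.9 over all protein-coding genes, with genes without a candidate counted at 0. More of the 68 had more than 1 start (41.2% against 27.4%), and the lists were drawn up with earlier results known. The effect of either on these medians was not tested. The signal of pck-1 was exceeded by 31 of the 68 and that of pck-3 by 54. By these counts pck-1 stood near the middle of the 68 and pck-3 towards their lower end. The strongest of the 68 was tre-1, at 91.9.

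**Figure D4:**
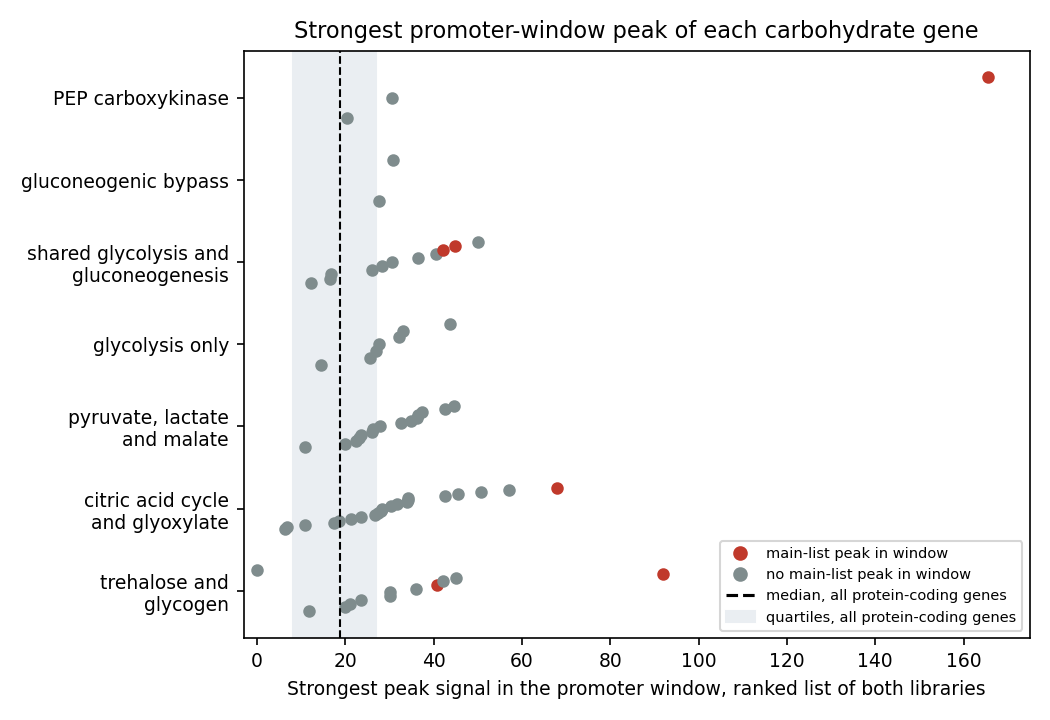
Strongest promoter-window peak of each gene, by group, in the ranked list of both libraries behind the main list. Each point is a gene, red where a main-list summit lay in the window, with 0 for a gene without a candidate. The dashed line is the median of all protein-coding genes (18.9) and the band their quartiles (8.05 to 26.9). The point for pck-2 at 165.5 stands right of all others, the next being tre-1 at 91.9.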

How the data were processed

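ChIP-seq peaks were measured in 2 biological replicates of 1 group, against 1 shared input. Chromatin was sonicated to 200 to 800 bp, per the labels' protocols. The lists were IDR (irreproducible discovery rate) peak lists in ce11, per the deposited file list, with no aligner or caller named. Those tools, and any version of them, are not given in the sources used. Per deposited list, each peak has a signal from the authors' peak caller on a scale not stated, and a score that the authors scaled from the IDR. The ranked lists also hold the authors' −log10 of the global IDR, which for the strong pck-2 peak was 4.63 in the list behind the main list, 4.24 in replicate 1 and 4.48 in replicate 2. Every main-list peak was in the ranked list set behind it at the same position with the same score, while 534 had no such match of position and score in the other ranked list. Every conservative-list peak had such a match in its own ranked list, while 399 had none in the other. Which libraries or pseudoreplicates each list compares is taken only as far as the file list states it.

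A gene was counted where a summit lay from 1000 bp upstream to 300 bp downstream of any start of its transcripts (Ensembl release 115), and each summit went to every gene whose window held it. Peaks were ranked by signal. Sequences and motifs came from the RefSeq WBcel235 genome, whose chromosome lengths hold all peaks. Scripts used Python 3.11.15 with numpy 2.4.6, pandas 2.3.3, scipy 1.17.1, matplotlib 3.10.9 and Biopython 1.88. On simulated summits, 100 of 100 planted inside a window were found and 0 of 100 planted 1 bp outside were counted, over 19973 genes.

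The members and gene lists were chosen with earlier results of these data known, and no test was run. Genes named were the 3 PEP carboxykinase genes, genes with a start within 1000 bp of a thresholded peak in their windows, listed genes with a main-list summit, the 3 most similar promoter peaks and the peaks 1 rank above and below. Of the listed symbols, 2 (got-1.1 and got-1.3) matched no protein-coding gene of the annotation and were left out. The alternatives were other lists, windows, starts, a signal minimum, overlap rules and ranking by score. Starts of RefSeq transcripts were added after the data were seen.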

Additional observations from a re-analysis of the deposited data

How the results depend on the processing

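The count of PEP carboxykinase genes with a main-list summit, 1 of 3, stayed at 1 under 9 of the 10 alternatives tried and was 0 with the most upstream start of each gene only. The 5 of 68 other carbohydrate genes became 9 once windows reached 2000 bp before and 500 bp past each start and 2 with peaks at or above the median signal. They ranged from 0 (without replicate 2) to 4 (without replicate 1), and lay between 4 and 6 under the others. The count over all protein-coding genes moved as well. From 466 it became 686 with the larger windows and 267 with the signal minimum. It was 178 without replicate 2, 189 without replicate 1, and between 297 and 502 under the others. The share of peaks ranked at or above the strong pck-2 peak, 1.50%, was 31.0% by score with ties at their mean rank, 0.0452% in the ranked list behind the main list, and from 3.50% to 5.22% with 1 replicate left out. It was 1.75% in the conservative list and 2.32% among promoter peaks. Each share is a rank over the length of its list. By signal the rank was 14 of 933 in the main list and 14 of 798 in the conservative list. It was 12 of 343 without replicate 2, 18 of 345 without replicate 1 and 9 of 388 among promoter peaks. In the ranked list behind the main list it was 47 of 103934. A score tie at 1000 was shared by 578 of 933 peaks. The cause of the other changes was not tested. No paired analysis was possible because the series holds 1 group. Depth is unknown, no library without the tag was analysed here, and a candidate below the threshold does not show absence of binding.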
